A study of Homo sapiens with 9 samples.

Results

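Serine synthesis and folate one-carbon metabolism were followed in BEAS-2B cells through 10 enzyme genes, PHGDH, PSAT1, PSPH, SHMT1, SHMT2, MTHFD1, MTHFD1L, MTHFD2, ALDH1L2 and ASNS. The genes were chosen by name, with earlier results from the same libraries already known, so the fold changes of the 10 genes are a description and not an independent test. All 10 were found by Ensembl identifier among 63187 genes in the count table, and all 10 were among the 16030 genes that passed the filter on low counts.

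BEAS-2B cells are human epithelial cells of the bronchus, immortalized in culture, and were grown in medium with fetal bovine serum. The study asked how aerosol condensate from an electronic cigarette changes the transcriptome of these cells. Control cells were untreated, PG/VG cells received condensate of the carrier liquid of propylene glycol and vegetable glycerin, and EC cells received condensate of a Virginia tobacco flavored liquid with 18 mg/mL nicotine. Both condensates were used at 2% (v/v) for 24 h, so EC differs from PG/VG by nicotine and flavor together, and the effects of these cannot be told apart. There were 3 libraries of poly-A selected RNA in each of 3 conditions, 9 in all, numbered 2, 3 and 4. The sample labels give the same number as the batch, so each batch holds 1 library of each condition.

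The libraries held 16168260 to 24917838 counts, and the batch 4 libraries, with 17882770 to 22899653, were within that range. Batch 4 stood apart in expression: 6505 of 16030 genes (40.6%) differed from batches 2 and 3 at a false discovery rate (FDR) below 0.05, 3222 of them (20.1%) higher and 3283 (20.5%) lower. In contrast, batch 3 vs. batch 2 gave 0 genes in edgeR, and 551 at an unadjusted p below 0.05. Batch 4 is a single batch, so this FDR rests on scatter between libraries and does not measure the spread between batches. Genes of the mitochondrial genome took 1.53% to 1.93% of the counts in batch 4 and 1.32% to 1.77% in the other batches. Levels are given as CPM, the counts of a gene scaled to the size of its library. Of the epithelial markers, KRT8 (752 to 1170 CPM) and KRT18 (301 to 628 CPM) were abundant, CDH1 reached 1.59 CPM at most and KRT5 stayed below 1 CPM. FOXA1 was the only one of 7 airway markers above 1 CPM, so the bronchial identity of the line rests on its label and not on these markers. Of the immune, endothelial and fibroblast markers, 9 of 12 stayed below 1 CPM in every library, with CD3E at 0. CD68 is among these, but other genes overlap 100% of its canonical transcript and reads on several genes were ignored. Its low count therefore does not show that it was absent. The exceptions were CD14 (3.07 to 8.89 CPM), CDH5 (3.73 to 7.15 CPM) and COL1A1 (51.5 to 107 CPM).

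Cells make serine from a glycolytic intermediate in 3 steps. PHGDH, phosphoglycerate dehydrogenase, opens the pathway, PSAT1, phosphoserine aminotransferase, takes the amino group from glutamate, and PSPH, phosphoserine phosphatase, releases serine. The serine hydroxymethyltransferases then move a carbon from serine to folate, SHMT1 in the cytosol and SHMT2 in mitochondria. In mitochondria MTHFD2 oxidizes that carbon, after which MTHFD1L releases it as formate or ALDH1L2 oxidizes it to carbon dioxide. In the cytosol MTHFD1 uses formate for purine and thymidylate synthesis. ASNS, asparagine synthetase, is not a folate enzyme, but it is a widely used target gene of ATF4, the transcription factor of the amino acid response, which is also known to act on several genes of serine and mitochondrial folate metabolism.

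Promoter sequence was examined for the genes because ATF4, MYC and NRF2 are all known regulators of these enzymes. RefSeq windows on GRCh38.p14, from 250 bases before to 50 bases after a start site, were available for 7 of the 10 genes (11 windows). ASNS and MTHFD1L held the core of the composite element bound by ATF4 with C/EBP proteins, TGATGNAA, searched on both strands, and it occurred in 3.62% of all 35116 windows. The capitals mark the element in the runs shown, which are given on the strand of the gene:

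ASNS, chr7:97872458-97872487, minus strand: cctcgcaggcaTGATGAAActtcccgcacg

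MTHFD1L, chr6:150866346-150866375, plus strand: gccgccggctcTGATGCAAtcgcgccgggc

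In ASNS the element ended 61 bases before the start site. In MTHFD1L it lay in the 3 of 4 windows that overlap each other, 631 to 784 bases downstream of the start of the GENCODE canonical transcript. The E-box CACGTG, the binding letters of MYC and related factors, which read the same on both strands, was found in 7.26% of all windows and in 2 of the genes:

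MTHFD1, chr14:64388326-64388355, plus strand: ccagtccctaagCACGTGggttgggttgtc

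MTHFD1L, chr6:150866320-150866349, plus strand: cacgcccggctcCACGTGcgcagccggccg

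The NRF2 core TGACNNNGC, searched on both strands, was found in 13.3% of all windows and, on the opposite strand, in MTHFD2:

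MTHFD2, chr2:74198611-74198640, plus strand: ttccctcccgGCGCAGTCAccggcgcggtc

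None of these letters overlapped those of another motif. The windows of PHGDH, PSAT1 and SHMT1 held none of the 3 motifs, and a match or its absence describes the letters only.

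Expression fell with EC at several steps of the pathway and was much lower in batch 4 in every condition. EC vs. control gave 5 of the 10 genes below an FDR of 0.05, PSAT1, PSPH, SHMT2, MTHFD1L and MTHFD2, all 5 lower and 0 higher. Among all genes tested 13.5% passed the threshold, 5.38% lower and 8.07% higher. The median log2 fold change (LFC) of the 10 genes was −0.31, and that of all genes was 0.01. With no batch term in the model, EC vs. control gave 0 of the 10 and 16 of all genes. PG/VG vs. control gave 0 of 10 in edgeR, against 4.54% of all genes, 1.9% lower and 2.63% higher, and the median LFC was −0.13 against 0.01 for all genes. At an unadjusted p below 0.05 it gave 6 of 10 (20.1% of all genes), and in DESeq2 2 of 10 (4.47%). After ComBat-Seq batch adjustment and then DESeq2, the approach of the study, it gave 5 of 10, 4 lower and 1 higher (1735 of 16100 genes). EC vs. PG/VG also gave 0 of 10 in edgeR, against 0.855% of all genes, 0.299% lower and 0.555% higher, and the median LFC was −0.18 against 0.00. It gave 7 of 10 at an unadjusted p below 0.05 (12.9% of all genes) and 2 of 10 in DESeq2 (1.09%). With the approach of the study it gave 6 of 10 (658 of 16100 genes). Because both treated conditions are set against the same control libraries, their fold changes are not independent. Batch 4 vs. batches 2 and 3 gave 9 of 10 genes lower and 0 higher, against 40.6% of all genes, 20.5% lower and 20.1% higher. The median LFC of the 10 was −1.14 against −0.00 for all genes. In bulk RNA, fewer expressing cells and less RNA per cell cannot be told apart.

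**Figure D1:**
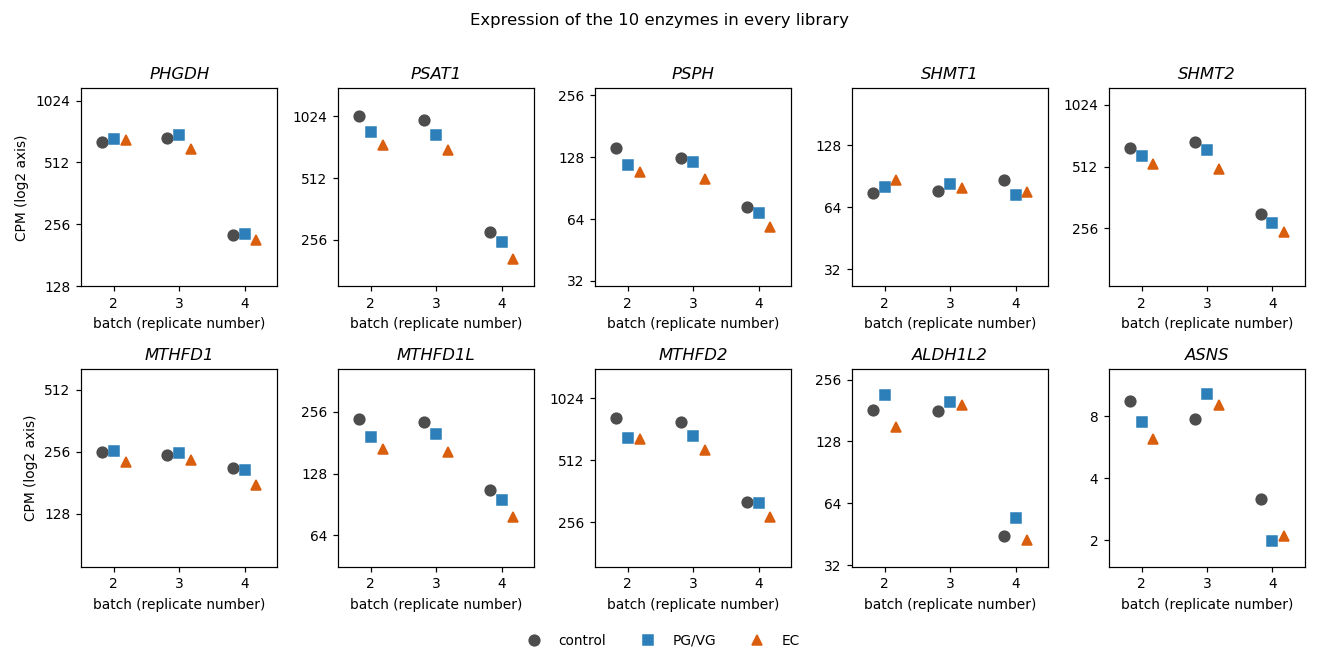
CPM of each enzyme gene (log2 axis, every panel spanning the same fold range) by batch, with 1 point for each library, in control (circles), PG/VG (squares) and EC (triangles). In batch 4 all points except those of SHMT1 lie below those of batches 2 and 3, and in PSAT1, PSPH, SHMT2, MTHFD1L and MTHFD2 the points step down from control to PG/VG to EC in each of the 3 batches. These 5 genes are also those past the threshold in EC vs. control, and the share of all genes with either pattern was not counted.

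**Figure D2:**
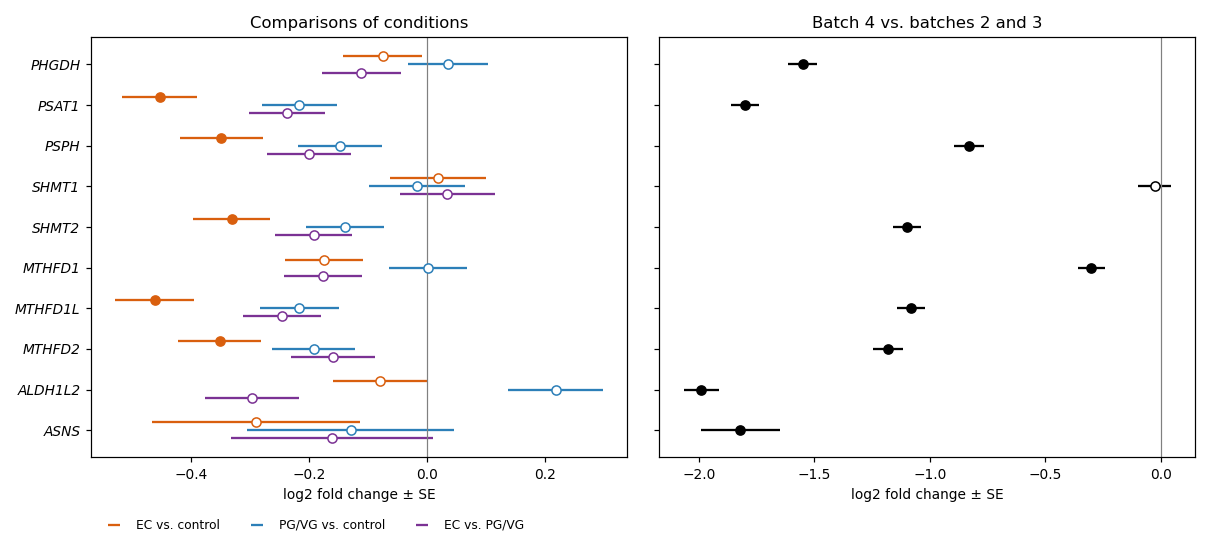
LFC of each enzyme gene with its standard error, for the 3 comparisons of conditions (left) and for batch 4 vs. batches 2 and 3 (right). Filled points passed an FDR of 0.05, which in the left panel are the 5 genes lower in EC vs. control, and in the right panel all genes but SHMT1.

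Of the serine synthesis enzymes, PSAT1 (ENSG00000135069, chr9:78297125-78330093) had the highest level per length in control cells, with a mean of 344 CPM per kb of its canonical transcript, followed by PHGDH with 276 and PSPH with 57.8. The PSAT1 level in control, PG/VG and EC was 1025, 854 and 743 CPM in batch 2. In batch 3 it was 976, 833 and 704 CPM, and in batch 4 it was 279, 250 and 208 CPM, in the same order. EC was thus the lowest and control the highest of the 3 libraries in each batch. EC vs. control had an LFC of −0.45 ± 0.064 (SE) for PSAT1, PG/VG vs. control one of −0.22 ± 0.064 and EC vs. PG/VG one of −0.24 ± 0.064. Within batches 2, 3 and 4, the log2 difference of EC and control was −0.46, −0.47 and −0.42, so the size of the difference in batch 4, where the level was much lower, was close to that in the other batches.

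PHGDH (ENSG00000092621, chr1:119648411-119744218) was close in the 3 conditions of a batch and, like PSAT1, was lower in batch 4. It was at 646, 666 and 660 CPM in control, PG/VG and EC of batch 2, at 674, 698 and 592 CPM in batch 3, and at 226, 228 and 215 CPM in batch 4. The conditions overlapped, with an LFC of −0.08 ± 0.067 (SE) for EC and of 0.04 ± 0.067 for PG/VG, each against control. The level was 656 ± 35.7 CPM (SD, n = 6) in batches 2 and 3 and 223 ± 7.12 CPM (SD, n = 3) in batch 4. The batches did not overlap, and the LFC was −1.55 ± 0.063 (SE). For batches, here and below, n counts libraries of the 3 conditions together, so the SD includes differences between conditions. The ratio of PSAT1 to PHGDH, per length, was 1.34, 1.22 and 1.04 in control of batches 2, 3 and 4, 1.09, 1.01 and 0.927 in PG/VG, and 0.952, 1.01 and 0.816 in EC. It was therefore highest in control in each batch.

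PSPH (ENSG00000146733, chr7:56011051-56051604) was at 142, 117 and 109 CPM in control, PG/VG and EC of batch 2, at 126, 121 and 101 CPM in batch 3 and at 73.3, 68.9 and 58.7 CPM in batch 4. It fell in EC vs. control (LFC −0.35 ± 0.071, SE), and the LFC was −0.15 ± 0.071 in PG/VG vs. control. In batch 4 PSPH was lower than in batches 2 and 3 (LFC −0.83 ± 0.064), the least of the 3 serine synthesis genes. A pseudogene copy, PSPHP1, held 81 to 159 counts per library beside 1184 to 2856 for PSPH, and reads with several mapping places were not counted by the authors. The other 18 pseudogenes of the enzymes had at most 12 counts in any library.

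The serine hydroxymethyltransferases had unlike values. SHMT2 (ENSG00000182199, chr12:57229573-57234935), the mitochondrial enzyme, was at 630, 575 and 526 CPM in control, PG/VG and EC of batch 2, at 672, 614 and 498 CPM in batch 3, and at 302, 272 and 245 CPM in batch 4. EC was the lowest in each batch, and SHMT2 fell in EC vs. control (LFC −0.33 ± 0.066, SE), while PG/VG vs. control had an LFC of −0.14 ± 0.066. SHMT1 (ENSG00000176974, chr17:18327860-18363563), the cytosolic enzyme, was at 75.2, 80.0 and 86.9 CPM in batch 2, at 76.6, 83.1 and 79.5 CPM in batch 3, and at 87.1, 73.6 and 75.9 CPM in batch 4. Its conditions overlapped, and the direction of EC vs. control was up in batches 2 and 3 and down in batch 4 (log2 differences 0.21, 0.05 and −0.20).

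SHMT2 was lower in batch 4, whereas SHMT1 overlapped. SHMT2 was 586 ± 65.8 CPM (SD, n = 6) in batches 2 and 3 and 273 ± 28.4 CPM (SD, n = 3) in batch 4, an LFC of −1.10 ± 0.060 (SE). SHMT1 was 80.2 ± 4.27 CPM and 78.9 ± 7.26 CPM, an LFC of −0.03 ± 0.070, and was the one enzyme whose batches overlapped. The ratio of SHMT2 to SHMT1, per length, was 9.82, 10.3 and 4.06 in control of batches 2, 3 and 4, 8.42, 8.66 and 4.33 in PG/VG, and 7.09, 7.34 and 3.79 in EC. EC had the lowest ratio in each batch, and each library of batch 4 was below every library of batches 2 and 3.

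**Figure D3:**
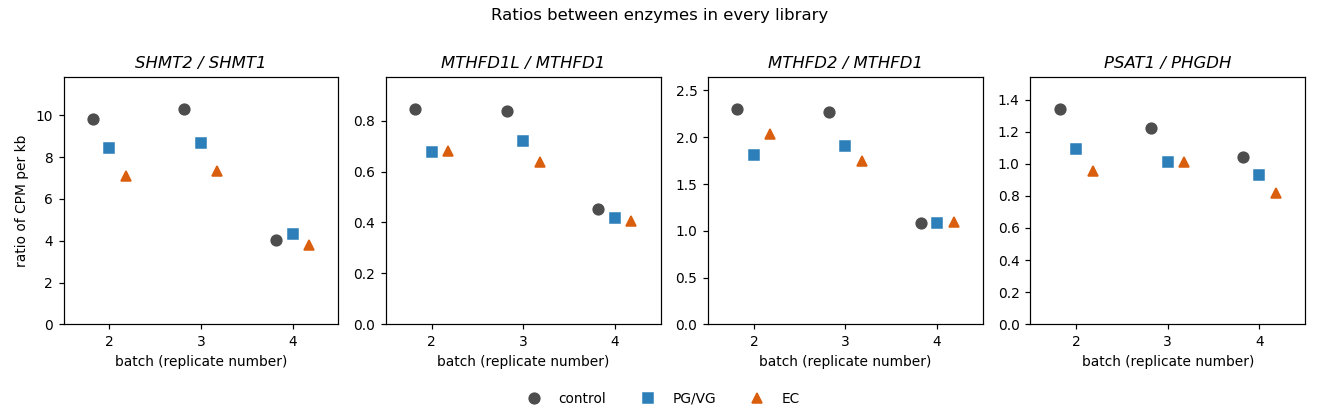
Ratios of CPM per kb between pairs of enzymes (axes from 0) by batch, with 1 point for each library. The mitochondrial to cytosolic ratios in batch 4 lie below those of all libraries of batches 2 and 3, and PSAT1 to PHGDH is highest in control in each batch.

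The folate enzymes that follow SHMT2 in mitochondria had unlike patterns between conditions. MTHFD2 (ENSG00000065911, chr2:74186172-74217565), a dehydrogenase and cyclohydrolase, was at 820, 655 and 647 CPM in control, PG/VG and EC of batch 2, at 783, 670 and 571 CPM in batch 3, and at 322, 316 and 270 CPM in batch 4. It fell in EC vs. control (LFC −0.35 ± 0.071, SE), with an LFC of −0.19 ± 0.070 in PG/VG vs. control. In batch 2 the PG/VG and EC libraries were nearly equal (log2 difference −0.02), and in batch 4 control and PG/VG were (−0.03). Other genes overlap 36.8% of the MTHFD2 canonical transcript, most of it SLC4A5 on the opposite strand (30.1%), and since the strand setting of the counting is not given in the sources used here, reads of these stretches may be missing from its count.

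MTHFD1L (ENSG00000120254, chr6:150865679-151101887), the mitochondrial enzyme that releases formate, was at 236, 192 and 169 CPM in control, PG/VG and EC of batch 2. In batch 3 it was at 227, 199 and 163 CPM, and in batch 4 at 106, 95.3 and 78.8 CPM. Its LFC of −0.46 ± 0.067 (SE) in EC vs. control was the lowest of the 10 genes, within its SE of that of PSAT1, and the values within batches 2, 3 and 4 were −0.48, −0.48 and −0.43. PG/VG was between control and EC in each batch, with an LFC of −0.22 ± 0.066 against control, and the LFC of EC vs. PG/VG was −0.25 ± 0.066. MTHFD1L is the gene that held both the composite element and the E-box in the windows shown above.

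ALDH1L2 (ENSG00000136010, chr12:105019784-105107643), which oxidizes formyl-folate in mitochondria to carbon dioxide, was the only one of the 10 genes with an LFC above 0.1 in PG/VG vs. control (0.22 ± 0.080, SE), a difference that did not pass the threshold. It was at 182, 214 and 150 CPM in control, PG/VG and EC of batch 2, at 179, 198 and 192 CPM in batch 3, and at 44.5, 53.9 and 42.3 CPM in batch 4. PG/VG was the highest library in each batch. EC was below control in batches 2 and 4 and above it in batch 3, with an LFC of −0.08 ± 0.080 for EC against control and of −0.30 ± 0.080 for EC against PG/VG.

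Of the 10 enzymes ALDH1L2 had the largest batch difference. Its level was 186 ± 21.5 CPM (SD, n = 6) in batches 2 and 3 and 46.9 ± 6.16 CPM (SD, n = 3) in batch 4, an LFC of −1.99 ± 0.076 (SE), and 53 of the 16030 genes tested had a lower LFC. The corresponding values were −1.08 ± 0.061 for MTHFD1L, with 198 ± 29.6 CPM against 93.3 ± 13.6 CPM, and −1.18 ± 0.064 for MTHFD2, with 691 ± 92.8 CPM against 303 ± 28.5 CPM. PSAT1 reached −1.80 ± 0.061, with 76 genes lower. In each of these genes the highest batch 4 library was below the lowest library of the other batches.

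MTHFD1 (ENSG00000100714, chr14:64388031-64463457), the cytosolic enzyme with 3 activities, changed the least of the genes that were lower in batch 4. It was at 256, 259 and 228 CPM in control, PG/VG and EC of batch 2, at 247, 251 and 233 CPM in batch 3, and at 214, 209 and 177 CPM in batch 4. EC was the lowest library in each batch, although the LFC of −0.17 ± 0.066 (SE) in EC vs. control did not pass the threshold, and control and PG/VG had an LFC of 0.00 ± 0.066. The batch 4 libraries were below the other batches by an LFC of −0.30 ± 0.058, with 200 ± 20.2 CPM (SD, n = 3) against 246 ± 12.4 CPM (SD, n = 6). The ratio of MTHFD1L to MTHFD1, per length, was 0.845, 0.839 and 0.452 in control of batches 2, 3 and 4, 0.678, 0.722 and 0.416 in PG/VG, and 0.679, 0.639 and 0.407 in EC. It was highest in control in each batch, and lower in every batch 4 library than in any other. The ratio of MTHFD2 to MTHFD1, in control, PG/VG and EC, was 2.3, 1.81 and 2.03 in batch 2. In batch 3 this ratio was 2.27, 1.91 and 1.75, and in batch 4 it was nearly equal in the conditions, 1.08, 1.08 and 1.09. Other genes overlap 14.6% of the canonical transcript of MTHFD1 and 36.8% of that of MTHFD2. The size of both ratios to MTHFD1 is therefore uncertain as a relative level.

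ASNS (ENSG00000070669, chr7:97851677-97872542) had few counts, 42 to 213 per library, whereas the other 9 genes had at least 791. Exons of a readthrough gene on the same strand, ENSG00000284707, cover 99.5% of the ASNS canonical transcript and 49.3% of all its annotated exon bases. The authors ignored reads that overlap more than 1 gene, so the ASNS count rests almost wholly on exon stretches outside the canonical transcript. Its level therefore cannot be set against the other genes. ASNS was at 9.47, 7.54 and 6.19 CPM in control, PG/VG and EC of batch 2, at 7.80, 10.2 and 9.07 CPM in batch 3, and at 3.15, 1.97 and 2.08 CPM in batch 4. The conditions overlapped, with an LFC of −0.29 ± 0.18 (SE) for EC and of −0.13 ± 0.18 for PG/VG, each against control. The EC value depends on single libraries: without control replicate 3 it was −0.63 (adjusted p = 0.0371, edgeR), past the threshold, and it was −0.13 without control replicate 2, −0.16 without EC replicate 2, −0.17 without control replicate 4 and −0.45 without EC replicate 3. The batches did not overlap, with an LFC of −1.82 ± 0.17 in batch 4 vs. batches 2 and 3. EC was above control in batch 3 and below it in batches 2 and 4.

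Together the 10 genes took 0.385% to 0.392% of the counts in control of batches 2 and 3 and 0.165% in control of batch 4. In EC they took 0.317% to 0.336% and 0.143%. Over the 9 libraries each gene except SHMT1 followed the mean of the other 9 with a Pearson's r of 0.916 (MTHFD1) to 0.988 (PSAT1 and SHMT2), and SHMT1 had an r of 0.125. These libraries fall into 2 clusters by batch, so r mainly describes the batch difference. The 5 other genes with a pattern most like the mean of the 10 were CHAC1 (r = 0.997), ACTG2 (0.994), PCK2 (0.992), RNASEH2B (0.992) and MYL9 (0.991). In batch 3 vs. batch 2 the LFC was between −0.08 and 0.08 for 9 of the 10, and 0.26 ± 0.16 (SE) for ASNS.

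Markers of cell types moved with EC, PG/VG and batch 4, and their part in the results was not tested. In EC vs. control 2 of 5 epithelial markers tested fell, KRT18 with an LFC of −0.46 (adjusted p = 0.000125, edgeR quasi-likelihood test) and KRT8 with −0.25 (adjusted p = 0.0177). The others had an LFC above 0, KRT19 of 0.18, CDH1 of 0.36 and EPCAM of 0.575, and none of these passed the threshold. In PG/VG vs. control the fibroblast marker COL1A1 rose (LFC 0.26 ± 0.071, SE, adjusted p = 0.0394). In batch 4, 3 of 5 epithelial markers tested were lower and 0 higher, and the summed level of the 6 markers was 1070 to 1270 CPM against 1340 to 1810 CPM in the other batches. CD14 and COL1A1 were lower in batch 4 as well (LFC −0.85 and −0.73) and CDH5 was higher (0.43). The summed immune markers were 3.22 to 5.40 CPM in batch 4 and 5.08 to 9.02 CPM in the other batches, the endothelial markers 5.70 to 7.77 and 4.24 to 5.76 CPM, and the fibroblast markers 51.7 to 64.5 and 86.7 to 107 CPM. The airway markers summed to 21.0 to 26.6 CPM in batch 4 and 19.3 to 25.1 CPM otherwise.

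The neighbors of the 10 enzymes in metabolism were read from 8 lists with 108 genes, of which 96 were tested. In EC vs. control 24 of the 96 passed the threshold, 6 higher and 18 lower, with a median LFC of −0.08, whereas 13.5% of all genes passed (8.07% higher and 5.38% lower). In PG/VG vs. control 3 passed, all lower, against 4.54% of all genes, and in EC vs. PG/VG 1 was higher and 1 lower, against 0.855%. In batch 4 vs. batches 2 and 3, 57 passed, 15 higher and 42 lower, against 40.6% of all genes. The same shares of all genes apply to each list taken alone.

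Among the other folate enzymes and transporters, 1 of 13 genes tested passed the threshold in EC vs. control, a share below that of all genes. This was DHFR2, which rose (LFC 0.56 ± 0.14, SE, adjusted p = 0.00926). The LFC of TYMS, thymidylate synthase, was 0.06 ± 0.080. In batch 4 FPGS and ALDH1L1, the cytosolic counterpart of ALDH1L2, were lower (−0.29 and −0.74). MTHFD2L, the paralog of MTHFD2, had an LFC of −0.03 ± 0.11 in batch 4 and of −0.12 ± 0.13 in EC vs. control. The mitochondrial folate carrier SLC25A32 was at 0.213 to 0.986 CPM, but 99.3% of its canonical transcript overlaps other genes, and 66.5% of that of TYMS does.

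Purine synthesis uses the formate that the mitochondrial enzymes release. All 12 genes of the list had an LFC below 0 in EC vs. control, and 3 passed the threshold, ADSS2 (−0.34 ± 0.076, SE), GART (−0.27 ± 0.065) and PAICS (−0.26 ± 0.066). Among all genes tested, 7768 of 16030 had an LFC below 0. Other genes overlap 98.8% of the canonical transcript of IMPDH2 and 30.6% of that of ADSL, so the counts of these 2 are uncertain. In PG/VG vs. control the median LFC of the list was −0.09. In batch 4, 6 were lower, led by GART (−0.60 ± 0.058), GMPS (−0.53 ± 0.058) and PRPS2 (−0.44 ± 0.064), and 1 was higher. PAICS, with an LFC of 0.02 ± 0.057 in batch 4, was not among them.

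Of 7 genes tested for glycine cleavage, serine or glycine breakdown and sarcosine metabolism, 2 passed the threshold in EC vs. control, both higher. SARDH, the mitochondrial sarcosine dehydrogenase, rose by an LFC of 0.89 ± 0.13 (SE, adjusted p = 7.17e-05) and SDSL, a serine dehydratase-like enzyme, by 0.56 ± 0.14. Both were of low abundance, at 6.04 to 13.0 CPM and 5.96 to 11.3 CPM. In batch 4, GCSH was higher (0.51 ± 0.20) and SDSL lower (−0.31 ± 0.12).

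Among 9 serine and glycine transporters tested, SFXN3, of the sideroflexin family of mitochondrial carriers, rose in EC vs. control (LFC 0.37 ± 0.082, SE). SLC38A2, a neutral amino acid transporter of the plasma membrane, fell (−0.29 ± 0.068), as did the glycine transporter SLC6A9 (−0.29 ± 0.077). In batch 4, 5 of the 9 were lower and 2 higher. SLC6A9 was at 19.7 to 25.0 CPM in batch 4 and at 60.1 to 77.8 CPM in the other batches (LFC −1.60 ± 0.071), and the serine transporter SLC1A4 was at 88.1 to 91.1 CPM and 203 to 237 CPM (−1.32 ± 0.063). SLC1A5, a glutamine and serine transporter, fell by an LFC of 0.89, whereas SFXN3 rose (0.62 ± 0.069).

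Serine also feeds cysteine synthesis. Of 11 genes of the methionine cycle and transsulfuration, 3 passed the threshold in EC vs. control, all lower. CTH, which makes cysteine from cystathionine, fell the most (LFC −0.58 ± 0.085, SE, adjusted p = 9.64e-05) and also fell in PG/VG vs. control (−0.36 ± 0.084, adjusted p = 0.015). MTRR and AHCYL1 fell by less (−0.30 and −0.22). In batch 4, 4 genes were lower and 1 higher. CTH was at 10.0 to 13.9 CPM in batch 4 and at 35.5 to 56.7 CPM in the other batches (LFC −1.97 ± 0.082), and CBS, the enzyme before it, was at 6.65 to 8.72 CPM and 19.8 to 26.8 CPM (−1.53 ± 0.11). These values were near those of ALDH1L2 and PHGDH.

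Among 14 glutamate, aspartate and proline enzymes, 4 passed the threshold in EC vs. control, all lower. PYCR1, the mitochondrial enzyme of the last step of proline synthesis, fell with EC (LFC −0.63 ± 0.073, SE, adjusted p = 7.08e-06) and with PG/VG (−0.38 ± 0.072, adjusted p = 0.0033), each against control. GPT2 and GOT1, 2 transaminases, fell in EC vs. control (−0.40 ± 0.069 and −0.32 ± 0.082). In batch 4, 6 genes were lower and 3 higher, and PYCR1 was at 27.6 to 42.8 CPM against 96.1 to 161 CPM (LFC −1.84 ± 0.069). GPT2 was lower as well (−1.07 ± 0.063).

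**Figure D4:**
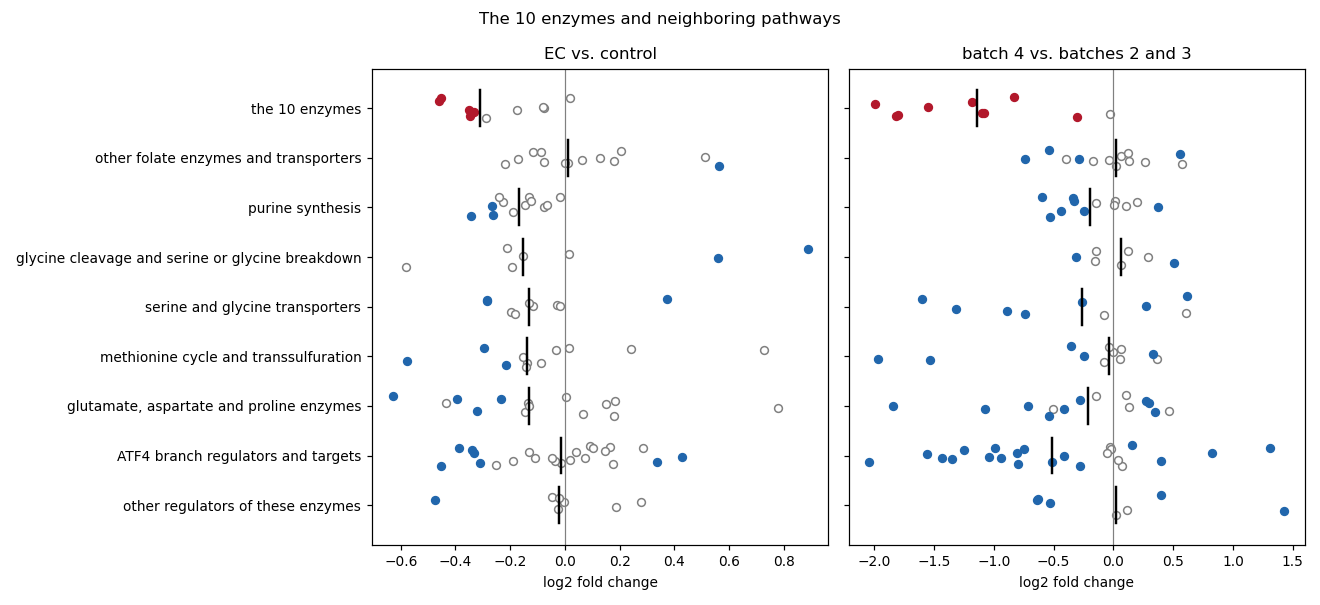
LFC of the 10 enzymes and of the genes of 8 neighboring lists in EC vs. control (left) and in batch 4 vs. batches 2 and 3 (right). Filled points passed an FDR of 0.05 and the black bars mark the median of each list, which for the 10 enzymes is −0.31 and −1.14. Points are spread vertically only to keep them apart.

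The mRNA of ATF4 was lower in batch 4 by less than those of 8 of the 10 enzymes. ATF4 was at 512 to 626 CPM in batch 4 and at 732 to 866 CPM in the other batches, an LFC of −0.51 ± 0.062 (SE), and its LFC against control was −0.13 ± 0.070 for EC and −0.16 ± 0.070 for PG/VG, neither past the threshold. CEBPG, a partner of ATF4, fell in EC vs. control (−0.34 ± 0.070) and in batch 4 (−0.99 ± 0.063). MYC fell in EC vs. control (−0.48 ± 0.070, adjusted p = 9.36e-05) and in batch 4 (−0.64 ± 0.062). NFE2L2, which encodes NRF2, had an LFC of −0.00 ± 0.067 in EC vs. control and fell in batch 4 (−0.53 ± 0.059). Of the 7 genes in the list of other regulators, MYC was the only one past the threshold in EC vs. control, a share near that of all genes, and 3 were lower and 2 higher in batch 4.

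Of 23 tested genes of the ATF4 branch, 5 fell and 2 rose in EC vs. control, with a median LFC of −0.01. PCK2, mitochondrial phosphoenolpyruvate carboxykinase (LFC −0.45 ± 0.074, SE), TRIB3, a pseudokinase (−0.39 ± 0.097), and CHAC1, which degrades glutathione (−0.31 ± 0.080), fell with CEBPG and SLC7A1. The amino acid transporter SLC7A5 (0.43 ± 0.078) and the transcription factor ATF5 (0.34 ± 0.10) rose. DDIT3, the stress factor CHOP, was the only gene of the list past the threshold in PG/VG vs. control (−0.35 ± 0.10). Its LFC in EC vs. control was −0.25 ± 0.099.

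In batch 4, 14 genes of the ATF4 branch were lower and 4 higher, with a median LFC of −0.51. PCK2 was at 55.2 to 73.3 CPM against 198 to 300 CPM in the other batches (LFC −2.04 ± 0.070, SE), SLC7A11, the cystine transporter, at 130 to 155 CPM against 359 to 450 CPM (−1.56 ± 0.076), and TRIB3 at 107 to 118 CPM against 233 to 367 CPM (−1.35 ± 0.089). CHAC1 was lower too (−1.25 ± 0.074), and DDIT3 had an LFC of −0.05 ± 0.086. GDF15, a stress cytokine, moved the other way, with 295 to 391 CPM in batch 4 and 129 to 158 CPM otherwise (1.31 ± 0.067), and so did ATF5 (0.82 ± 0.085). Other genes overlap 26.5% to 35.9% of the canonical transcripts of KRT18, SLC1A5, GCSH and DDIT3, whose counts are uncertain for that reason.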

How the data were processed

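Poly-A selected RNA of BEAS-2B cells was sequenced in 9 libraries, 3 for each condition. Per the labels and the study's methods, the authors used fastp for trimming, STAR for alignment to GRCh38.p12 and featureCounts of Subread 2.0.4 for counting on exons. Reads with several mapping places or on several genes were ignored, and the strand setting is not given in the sources used here. The deposited values are these raw counts, and the authors describe the replicates as biological.

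The 10 genes, the 8 lists and the markers were chosen with earlier results of these data known. The filter kept genes that reached 10 counts in 3 or more libraries. The test was edgeR 4.0.16 (R 4.3.3) with TMM scaling, 1 robust quasi-likelihood fit of the 9 libraries with condition and batch, and Benjamini-Hochberg adjustment over the genes tested, at a threshold of 0.05. Contrasts between batches came from the same fit, so their SE and FDR describe scatter between libraries and not the spread between batches. The SE was derived from the LFC and its F statistic. CPM use TMM-scaled library sizes. Same-numbered libraries of different conditions had correlated deviations (r 0.334 to 0.707 in 9 pairs, −0.539 to 0.426 for other numbers), so the number was kept as a replicate block. No 2 replicates were duplicates.

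Coordinates are from GENCODE release 44 on GRCh38, in which 62666 of 63187 identifiers were found, and CPM per kb use its canonical transcripts. Promoter windows came from RefSeq. Genes named from a list were up to 3 with the lowest adjusted p past the threshold in each comparison, and 13 named in every case, among them ATF4 and MYC. Results for some genes that this rule names are not reported here. The fit was repeated without the block, with RLE size factors or library size as the only scaling, with no filter beyond 1 count or a filter of 10 counts in all libraries, in DESeq2 1.42.0 with the block, on counts adjusted by ComBat-Seq (sva 3.50.0) in DESeq2, with only the 2 conditions compared, and with each library left out. ComBat-Seq followed by DESeq2 is the approach that the study's methods describe, run here with other software versions. Fits of batches 2 and 3 only, and batch 4 against each of the other batches, were added after seeing the data. The EC vs. control fit was tried on simulated counts with planted changes larger than the enzymes showed in that comparison. The other comparisons were not simulated.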

Additional observations from a re-analysis of the deposited data

How the results depend on the processing

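EC vs. control gave 5 to 6 of the 10 enzymes under every alternative but the fit without the replicate block (0), with 6 after ComBat-Seq and without control replicate 3. Batch 4 vs. batches 2 and 3 gave 9 under each alternative that keeps the batch and batch 4, also against batch 2 or batch 3 alone. The calls of PSAT1, PSPH, SHMT2, MTHFD1L and MTHFD2 in EC vs. control held in all 9 fits that left out 1 library and without batch 4. No called value changed its sign in 700 values by gene and alternative, 5 lost and 29 gained a call. The median LFC of the 10 in EC vs. control was −0.28 without the replicate block, −0.25 with library size as the only scaling (which moved the median of all genes to 0.07), −0.34 in DESeq2 and −0.33 to −0.25 with single libraries left out. In PG/VG vs. control, 1 of the 10 passed with RLE size factors or 10 counts in every library, 2 in DESeq2 or with only those 2 conditions, 5 after ComBat-Seq, and 0 to 2 with a library left out (2 without EC replicate 2). In EC vs. PG/VG, 1 passed with no filter or with only those 2 conditions, 2 in DESeq2 and 6 after ComBat-Seq. With a library left out, 0 to 1 passed (1, ALDH1L2, without PG/VG or EC replicate 3). Among all genes, calls between the condensates rose from 137 of 16030 to 658 of 16100 after ComBat-Seq. Calls for PG/VG against control rose from 727 of 16030 to 1735 of 16100. The rise was thus not confined to the enzymes. With only the 2 conditions these calls were 318 of 15818 and 1179 of 15327. In DESeq2 they were 175 and 717 of 16030. With no filter, 309 of 35230 genes differed between the condensates.

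Of the 96 list genes, 24 passed in EC vs. control, 1 without the replicate block and 15 to 24 with a library left out (15 without control replicate 3). In the counts that follow, 108 list genes were tested with no filter and 97 after ComBat-Seq. Counts for all genes after ComBat-Seq are given above. The 3 in PG/VG vs. control became 0 without the block, 5 with no filter, 6 in DESeq2, 19 after ComBat-Seq, 11 with those 2 conditions alone and 0 to 8 with a library left out (0 without control replicate 3, 8 without EC replicate 2). The 2 in EC vs. PG/VG became 0 without the block and in batches 2 and 3 only, 4 with library size as the only scaling, no filter or DESeq2, 14 after ComBat-Seq, 5 with those 2 conditions alone and 0 to 4 with a library left out (0 without PG/VG replicate 2 or 4). The cause of these changes was not tested. Of the 10 genes, ASNS had the lowest count in a library (42).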

Other observations

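Between the condensates themselves, 2 amino acid transporters of the plasma membrane went opposite ways. SLC7A5, which exchanges large neutral amino acids, was at 2033, 2106 and 2508 CPM in control, PG/VG and EC of batch 2, at 2159, 2178 and 2574 CPM in batch 3, and at 935, 1101 and 1542 CPM in batch 4. It was higher in EC vs. PG/VG (LFC 0.33 ± 0.078, SE, adjusted p = 0.0439, edgeR). SLC7A1, which carries arginine and lysine, was at 561, 584 and 409 CPM in batch 2, at 594, 581 and 503 CPM in batch 3, and at 334, 322 and 269 CPM in batch 4, and was lower in EC vs. PG/VG (LFC −0.33 ± 0.070, adjusted p = 0.0233). Both calls were lost without the replicate block, without PG/VG replicate 2 or 4, and in batches 2 and 3 only. That of SLC7A5 was also lost without PG/VG replicate 3 or EC replicate 4, and that of SLC7A1 without EC replicate 2.

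MDM2, a ubiquitin ligase, was chosen after its values were seen. It was at 155 to 183 CPM in batches 2 and 3, and in control, PG/VG and EC of batch 4 it was at 352, 452 and 580 CPM. Its LFC was 1.43 ± 0.097 in batch 4 vs. batches 2 and 3. Of the genes most like the 10 enzymes over the libraries, ACTG2 and MYL9 encode proteins of the contractile apparatus, with an LFC in batch 4 of −2.28 and −1.26.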
